A study of Mus musculus with 23 samples.

Results

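The genes Calb1, Calb2, Pvalb, Hpca, Hpcal1, Ncald, Necab1, Necab2 and Necab3, which encode calcium-binding proteins of neurons, were examined in RNA sequencing of the mouse hippocampus. They were taken by name and matched through their symbols to the Ensembl identifiers of the deposited count table. All 9 were found among its 45706 gene identifiers, and all 9 passed the filter on low counts, which left 18823 genes to test.

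The study compared wild-type (WT) mice with conditional knockout (cKO) mice for Slm2, the splicing regulator whose gene symbol is Khdrbs3. Its 23 polyadenylated RNA libraries came from 3 neuronal populations named CamK, Grik and SST, of which the labels give CamK and Grik as pyramidal excitatory neurons and SST as interneurons positive for somatostatin. There were 4 WT and 3 cKO libraries of CamK, 4 WT and 4 cKO libraries of Grik, and 4 WT and 4 cKO libraries of SST. The design text speaks of CA1 and CA3 without saying which of CamK and Grik is which. No further alleles, Cre lines, ages or isolation steps are given in the sources used here, and the labels do not say that libraries came from separate animals, so p-values measure the spread between these libraries alone.

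Each library held 87612006 to 112993538 reads in genes. Summed over the marker list of each kind, CA1 pyramidal markers stood at 1118 to 1531 CPM (read counts scaled to the library total) in CamK WT and 62.0 to 95.7 in Grik WT, and CA3 pyramidal markers at 158 to 186 and 819 to 887. GABAergic markers reached 4719.7 to 5327 CPM in SST WT against at most 135 in any CamK or Grik WT library. The total count of Khdrbs3 was lower in the SST libraries labelled cKO than in WT (log2 difference -0.47, edgeR adjusted p 0.0309). That call depended on the fit. No gene, Khdrbs3 included, passed in SST with limma-voom or with SST fitted alone. The same held in edgeR without cKO replicate 3, 4 or 5 or without WT replicate 1. Khdrbs3 differed by -0.42 in CamK (edgeR adjusted p 0.114), where every library labelled cKO lay below WT, as in SST. In Grik it differed by 0.30 (adjusted p 0.499, not called), and every library labelled cKO lay above WT, the direction opposite to CamK and SST. This genotype difference of Khdrbs3 itself differed between CamK and Grik (edgeR adjusted p 0.0154) and between Grik and SST (0.00135). A total count cannot decide whether the knockout took place, since the altered part of the gene is not given. In this text "cKO" therefore names the label only. In these bulk libraries a smaller number of cells of a type and less RNA per cell cannot be told apart.

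All 9 proteins bind calcium through EF-hand loops. Calbindin (Calb1), calretinin (Calb2) and parvalbumin (Pvalb) are cytosolic proteins long used to tell hippocampal cell classes apart, and they act largely as buffers that shape how fast and how far a calcium rise spreads. Hippocalcin (Hpca), hippocalcin-like 1 (Hpcal1) and neurocalcin delta (Ncald) are sensors of the neuronal calcium sensor family, which expose a fatty acid anchor and move to membranes when calcium binds. The NECAB proteins (Necab1, Necab2 and Necab3) carry their EF-hand at the N-terminus and a monooxygenase-like domain towards the other end.

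Upstream sequence was read for the members that the RefSeq promoter table of GRCm38.p6 holds, which were 5 of 9; Calb1, Calb2, Ncald and Necab1 had no entry. Those of Pvalb, Hpcal1 and Necab2 are shown because Pvalb was higher, and Hpcal1 and Necab2 lower, in SST than in both excitatory populations. Each is the 250 bases before the RefSeq start nearest to the gene's start in GENCODE M21, written 5′ to 3′ on the gene's own strand. Pvalb lies at chr15:78206401-78206650 on the minus strand, Hpcal1 at chr12:17690559-17690808 on the plus strand and Necab2 at chr8:119446469-119446718 on the plus strand. Capitals mark the GC box GGGCGG or its reverse complement CCGCCC, the only searched motif found in these windows. The entries of Hpca and Necab3 overlap the annotated gene and are not shown.
Pvalb: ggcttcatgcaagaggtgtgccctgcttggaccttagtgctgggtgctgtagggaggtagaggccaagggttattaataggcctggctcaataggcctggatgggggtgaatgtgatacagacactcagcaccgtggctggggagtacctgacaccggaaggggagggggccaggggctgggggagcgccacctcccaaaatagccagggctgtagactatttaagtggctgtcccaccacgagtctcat
Hpcal1: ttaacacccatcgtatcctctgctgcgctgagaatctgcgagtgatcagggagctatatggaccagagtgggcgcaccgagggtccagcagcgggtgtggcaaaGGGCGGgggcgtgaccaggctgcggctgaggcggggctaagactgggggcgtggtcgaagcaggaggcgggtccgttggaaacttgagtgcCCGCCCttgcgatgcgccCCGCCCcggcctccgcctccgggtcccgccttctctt
Necab2: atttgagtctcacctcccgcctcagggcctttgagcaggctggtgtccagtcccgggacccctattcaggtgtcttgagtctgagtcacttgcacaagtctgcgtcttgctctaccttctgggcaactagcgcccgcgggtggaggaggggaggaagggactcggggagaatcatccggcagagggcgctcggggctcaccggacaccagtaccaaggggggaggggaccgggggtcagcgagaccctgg
The Hpcal1 window held 3 GC boxes and those of Pvalb and Necab2 held 0, where 32.7% of all 32851 RefSeq promoter windows of this length held at least 1. TATAAA (present in 12.4% of windows), the short cyclic AMP response motif TGACG (17.8%) and the E-box CAGCTG (13.0%), each searched on both strands, were found in none of the 3. GC content was 58.4% for Pvalb, 66.8% for Hpcal1 and 64.0% for Necab2, against a median of 52.4% over all windows. The Hpcal1 window held 22 CpG dinucleotides, the Necab2 window 13 and the Pvalb window 4, against a median of 6. A match describes the letters only and says nothing about binding.

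The levels of the buffers differed between the populations in WT libraries, and per kb of merged exons each population had a different leading gene. Across populations, Calb1 was highest in SST and CamK, Calb2 in Grik and Pvalb in SST. Calb2 was 25.6-fold higher in Grik than in CamK, and Pvalb was 133-fold higher in SST than in either excitatory population. The plot of levels by library shows all 9 genes in all 23 libraries.

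**Figure D1:**
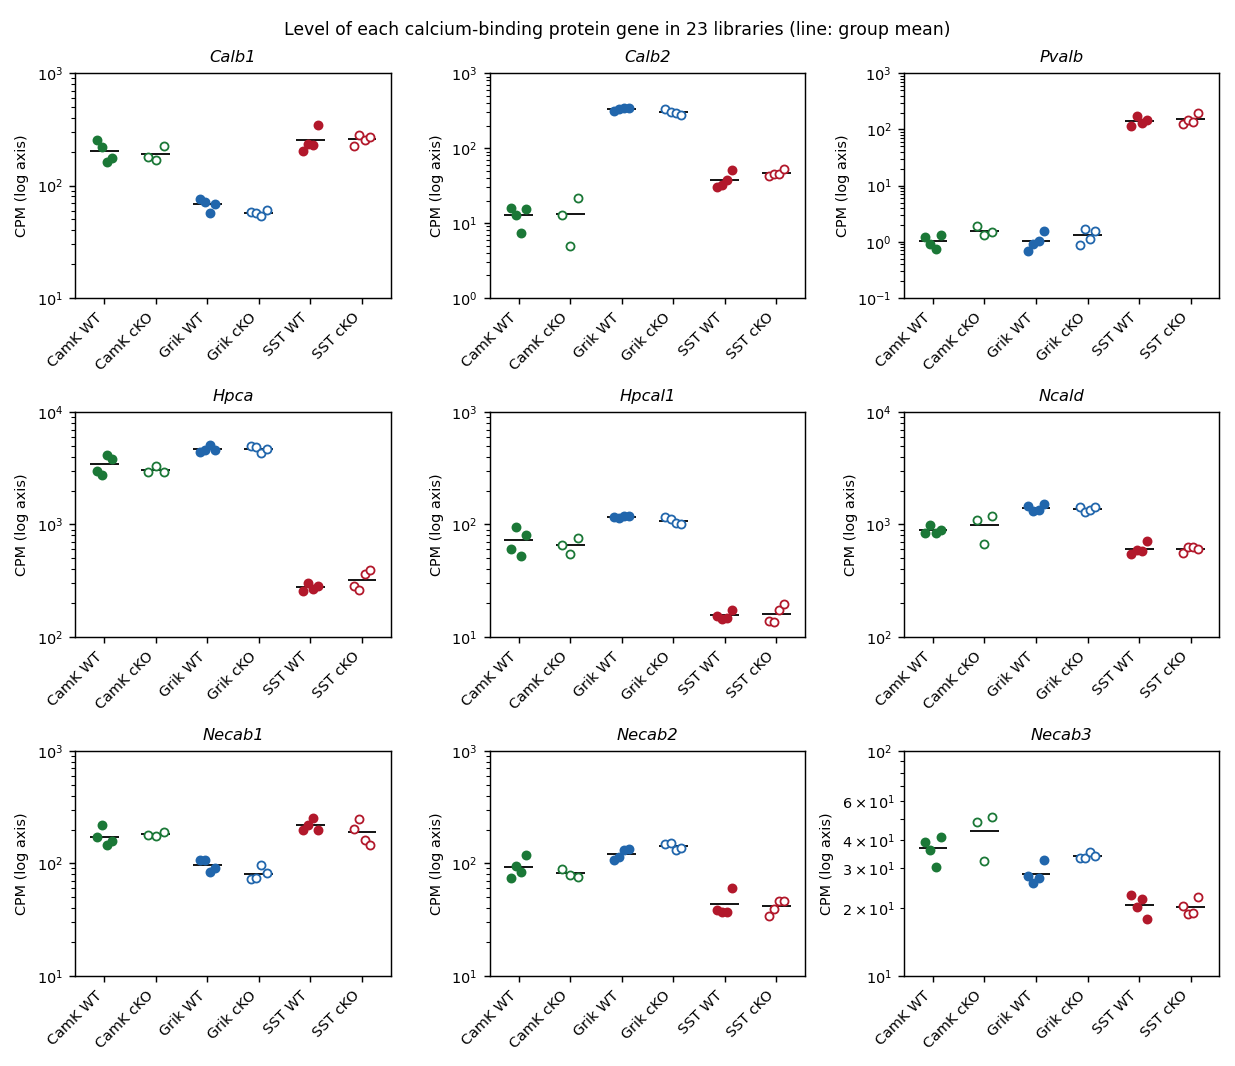
Level of each of the 9 genes in CPM (log axis) in the 23 libraries, by population and genotype; points are libraries and lines are group means. Calb2 lies between 280.3 and 347 CPM in all 8 Grik libraries and at or below 52.3 CPM in all others, and Pvalb lies at or above 114 CPM in all 8 SST libraries and below 2 CPM in all others.

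Calb1 (ENSMUSG00000028222, chromosome 4 from 15881264 to 15908064, plus strand, GRCm38) encodes calbindin, which is known for CA1 pyramidal cells and dentate granule cells. Its levels in CamK WT replicates 2, 3, 4 and 5 were 252, 221, 162 and 178 CPM. In Grik WT replicates 3, 4, 5 and 6 they were 75.9, 71.6, 57.0 and 68.9 CPM, and in SST WT replicates 1, 2, 3 and 5 they were 205, 233, 232 and 343 CPM. Every Grik library lay below every library of the other populations, while the CamK and SST values overlapped. Calb1 was 2.97-fold higher in CamK than in Grik (log2 difference 1.57, SE 0.15, edgeR adjusted p 1.19e-08) and 3.71-fold lower in Grik than in SST (log2 -1.89, SE 0.15, adjusted p 1.76e-10). The CamK and SST neighbours at the top of this order did not pass the test (log2 -0.32, SE 0.14, edgeR adjusted p 0.0626). That value did pass with DESeq2 (adjusted p 0.0449), with a filter of at least 1 CPM in 3 libraries (0.0459) or with the dentate marker level of the CamK libraries as a covariate (0.0165), and without CamK WT replicate 2 (0.0140) or SST WT replicate 1 (0.0227). Leaving out each library in turn gave log2 differences of -0.43 to -0.14 with adjusted p up to 0.373, the weakest without SST WT replicate 5.

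Calb2 (ENSMUSG00000003657, chromosome 8 from 110137502 to 110168210, minus strand) encodes calretinin, which is known for mossy cells of the mouse dentate hilus, Cajal-Retzius cells and a class of interneurons. In Grik WT its levels were 311, 328, 339 and 347 CPM in replicates 3 to 6. The CamK WT levels were 15.8, 12.8, 7.48 and 15.6 CPM, and the SST WT levels were 30.3, 32.0, 38.0 and 51.8 CPM. None of the 3 groups overlapped, and the order was Grik, SST, CamK. The log2 difference of Calb2 was -4.68 for CamK against Grik (SE 0.34, edgeR adjusted p 2.03e-09), -1.56 for CamK against SST (SE 0.30, adjusted p 1.97e-04) and 3.12 for Grik against SST (SE 0.31, adjusted p 6.43e-08).

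Of the markers of other calretinin cells, Drd2, Calcrl, Csf2rb2, Vip, Crh and Trp73 were higher in Grik WT than in CamK WT in edgeR, Reln was lower, Prox1 was not called and Lhx5 was not tested. Drd2, Calcrl and Csf2rb2, the mossy cell list, summed to 4.88 to 5.53 CPM in Grik WT, 0.463 to 1.82 CPM in CamK WT and 9.17 to 12.3 CPM in SST WT. In Grik WT the mean was 2.10 CPM for Drd2, 2.46 CPM for Calcrl and 0.666 CPM for Csf2rb2 (edgeR adjusted p against CamK WT 0.00159, 1.68e-08 and 8.09e-06). The SST WT sum was mostly Drd2, which averaged 9.91 CPM there, above Grik WT (edgeR adjusted p 1.34e-06). Calcrl (0.642 CPM) and Csf2rb2 (0.0802 CPM) were lower in SST WT than in Grik WT (edgeR adjusted p 2.68e-06 and 0.000123). Vip, the neuropeptide of a calretinin-sharing interneuron class, averaged 10.5 ± 4.88 CPM (SD, n = 4) in Grik WT and 0.348 ± 0.144 CPM in CamK WT (adjusted p 2.01e-06), while its list (Vip, Crh and Prox1) summed to 81.3 to 99.5 and 49.5 to 139 CPM, with an edgeR adjusted p of 0.00692 for Crh and 0.671 for Prox1. Trp73, a Cajal-Retzius cell gene, averaged 12.1 ± 1.13 CPM in Grik WT and 3.79 ± 0.980 CPM in CamK WT (edgeR adjusted p 2.34e-07). Reln of the same list went the other way, at 3.97 ± 0.658 CPM in Grik WT and 8.72 ± 6.72 CPM in CamK WT, with overlapping groups (edgeR adjusted p 0.0283). The list (Reln, Trp73 and Lhx5) summed to 14.7 to 18.2 CPM in Grik WT and 5.86 to 22.0 CPM in CamK WT, with Lhx5 at 0.0663 and 0.0165 CPM. The part of these cells in the Calb2 level was not tested.

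Pvalb (ENSMUSG00000005716, chromosome 15 from 78191114 to 78206400, minus strand) encodes parvalbumin, a calcium buffer known for basket and other fast-spiking interneurons. Its SST WT levels were 114, 172, 128 and 146 CPM. The CamK WT levels were 1.20, 0.930, 0.745 and 1.31 CPM, from 66 to 120 reads, and the Grik WT levels were 0.699, 0.915, 1.05 and 1.54 CPM, from 61 to 131 reads. All SST libraries lay far above the excitatory libraries, whose values overlapped each other. The log2 difference was -7.06 for CamK against SST (SE 0.26, edgeR adjusted p 2.17e-15) and -7.06 for Grik against SST (SE 0.26, adjusted p 1.67e-15). For CamK against Grik the log2 difference of Pvalb was 0.00 with a 95% interval of -0.55 to 0.54 (edgeR adjusted p 0.998).

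The Pvalb level in the excitatory libraries was set beside that of other interneuron genes. Pvalb stood at 0.748% of its SST WT mean in CamK WT and at 0.751% in Grik WT. In CamK WT, Gad1 stood at 2.30% of its SST WT mean, Gad2 at 1.23%, Slc32a1 at 1.55%, Sst at 0.560% and Lhx6 at 0.294%. The Pvalb share lay within that range, as it did in Grik WT, where these genes ran from 0.302 to 1.89%. The part of interneuron RNA in these Pvalb reads was not tested.

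Within SST the somatostatin transcript itself was uneven between libraries. Sst stood at 1720.3, 159, 554 and 1557 CPM in SST WT replicates 1, 2, 3 and 5. Replicate 2, the lowest for Sst, had the highest Pvalb of its group (172 CPM), and replicate 7 of the SST libraries labelled cKO likewise had the lowest Sst and the highest Pvalb (195 CPM) of its group. Without WT replicate 2 the log2 difference of Pvalb was -6.94 for CamK against SST and -6.94 for Grik against SST, and no call of a member changed. Other genes known for parvalbumin interneurons, Tac1, Erbb4 and Kcnc1, summed to 430.1, 597, 517 and 439 CPM in SST WT replicates 1, 2, 3 and 5, highest in replicate 2. In the SST libraries labelled cKO, replicates 3, 4, 5 and 7, that list summed to 527.9, 541, 462 and 494 CPM, highest in replicate 4. It summed to 51.5 to 76.6 CPM in CamK WT and 129 to 148 CPM in Grik WT, most of it Kcnc1. Kcnc1 averaged 65.1, 132 and 334 CPM in CamK, Grik and SST WT. In the same order Erbb4 averaged 2.69, 5.02 and 120 CPM, and Tac1 0.353, 0.832 and 41.1 CPM. The part of parvalbumin interneurons in the SST value of Pvalb was not tested.

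Compared per length of merged exons, the make-up of the 3 buffers differed by population. The summed level of Calb1, Calb2 and Pvalb was 50.4 ± 10.2 CPM per kb in the CamK WT libraries (SD, n = 4), 205 ± 8.31 in those of Grik and 209 ± 33.9 in those of SST. Calb1 made up 83.4 ± 3.72% of it in CamK WT (SD, n = 4). Calb2 made up 92.6 ± 0.932% in Grik WT, and Pvalb made up 64.5 ± 5.34% in SST WT with Calb1 at 25 ± 3.53%. Over the WT libraries of its population the leading gene held 78.2 to 87.0% (Calb1 in CamK), 91.6 to 93.8% (Calb2 in Grik) and 58.3 to 71.3% (Pvalb in SST).

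**Figure D2:**
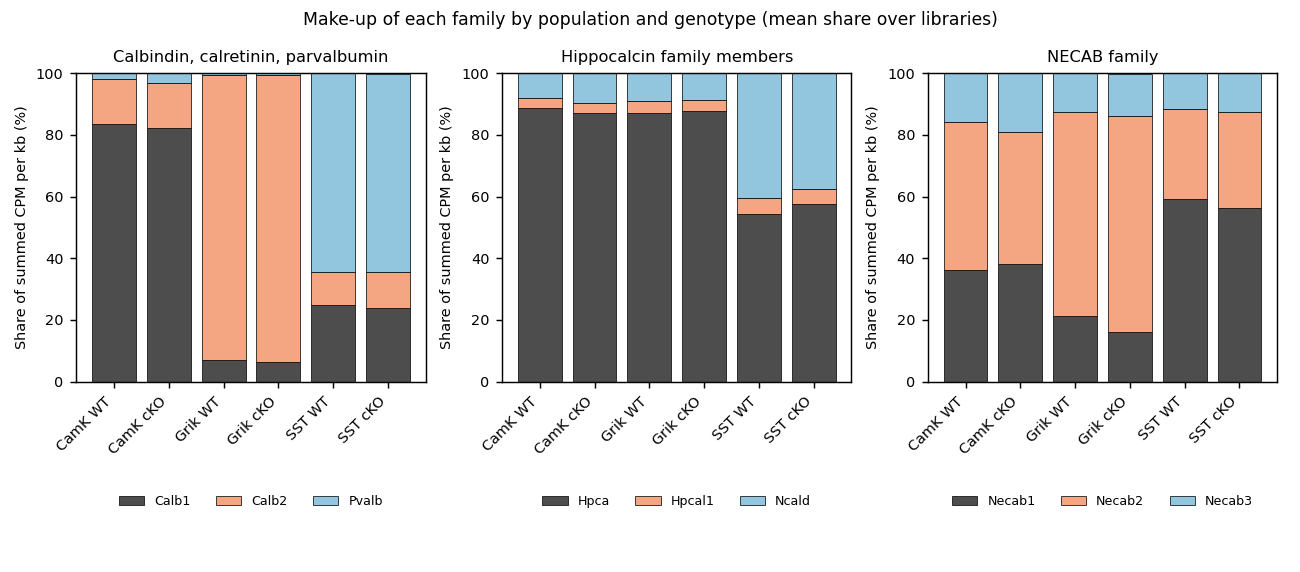
Share of each gene in the summed CPM per kb of its family (percent, mean over libraries) for the 3 buffers, the hippocalcin family members and the NECAB family, by population and genotype. Calb1, Calb2 and Pvalb in turn take the largest share in CamK (83.4%), Grik (92.6%) and SST (64.5%) WT, and the bars of the libraries labelled cKO stand beside those of WT.

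The hippocalcin family members were all higher in the excitatory populations than in SST, and higher in Grik than in CamK. Hpca differed most, with 12.4-fold more in CamK and 16.8-fold more in Grik than in SST. Hpcal1 followed with 4.66-fold and 7.55-fold, and Ncald with 1.46-fold and 2.32-fold.

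Hpca (ENSMUSG00000028785, chromosome 4 from 129111570 to 129122036, minus strand) encodes hippocalcin, a sensor known for its high level in hippocampal pyramidal cells. Its levels were 3015, 2747, 4143 and 3841 CPM in CamK WT and 4389, 4569, 5074 and 4620.3 CPM in Grik WT. In SST WT they were 258, 302, 268 and 283 CPM. The 3 groups did not overlap. The log2 difference of Hpca was -0.44 for CamK against Grik (SE 0.12, edgeR adjusted p 0.00390), 3.63 for CamK against SST (SE 0.13, adjusted p 5.21e-17) and 4.07 for Grik against SST (SE 0.13, adjusted p 6.49e-18). By mean CPM per kb, Hpca of WT libraries ranked 9 of 18720 genes with a length in CamK, 6 in Grik and 397 in SST.

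Hpcal1 (ENSMUSG00000071379, chromosome 12 from 17690856 to 17791933, plus strand) encodes a visinin-like sensor close to hippocalcin, and its upstream sequence is the one with the GC boxes above. Its levels were 61.1, 94.9, 52.6 and 80.5 CPM in CamK WT, with the widest spread of the 3 groups. Grik WT held 116, 114, 119 and 119.7 CPM and SST WT held 15.2, 14.5, 14.8 and 17.5 CPM. No group overlapped another. The log2 difference was -0.70 for CamK against Grik (SE 0.14, edgeR adjusted p 3.06e-04), 2.22 for CamK against SST (SE 0.15, adjusted p 5.65e-12) and 2.92 for Grik against SST (SE 0.15, adjusted p 5.43e-14).

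Ncald (ENSMUSG00000051359, chromosome 15 from 37366175 to 37792570, minus strand) encodes neurocalcin delta, a sensor known to bind clathrin. Its levels were 1472, 1307, 1351 and 1517 CPM in Grik WT and 839.9, 999, 836 and 889 CPM in CamK WT. In SST WT they were 551, 597, 580.3 and 710.2 CPM. Again no group overlapped another, in the order Grik, CamK, SST. The log2 difference of Ncald was -0.66 for CamK against Grik (SE 0.12, edgeR adjusted p 6.38e-05), 0.55 for CamK against SST (SE 0.12, adjusted p 2.89e-04) and 1.21 for Grik against SST (SE 0.12, adjusted p 3.56e-09). The share of Ncald in the family's summed CPM per kb was 40.5 ± 2.21% in SST WT (SD, n = 4), against 8.06 ± 1.82% in CamK WT and 9.02 ± 0.882% in Grik WT.

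General excitatory markers in SST WT were set beside the family. Slc17a7 stood at 8.72% of its CamK WT mean there, Camk2a at 17.9%, Neurod6 at 4.82% and Tbr1 at 5.32%. Hpca stood at 8.08%, within the range of these markers. Hpcal1 at 21.5% and Ncald at 68.4% lay above it. Against Grik WT, Slc17a7 stood at 5.32%, Camk2a at 15.9%, Neurod6 at 3.11% and Tbr1 at 6.03%. Hpca (5.95%) and Hpcal1 (13.2%) lay inside the range of these markers, Hpcal1 above all of them except Camk2a. Ncald (43.2%) lay above the range. The part of excitatory RNA in the SST levels of Hpca and Hpcal1 was not tested.

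The NECAB genes did not share an order. Necab1 was lowest in Grik, and Necab2 and Necab3 were lowest in SST.

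Necab1 (ENSMUSG00000040536, chromosome 4 from 14952245 to 15149794, minus strand), known as a partner of synaptotagmin, had 170.3, 218, 144 and 158 CPM in CamK WT. In Grik WT it had 107, 108, 83.6 and 90.9 CPM, and in SST WT it had 197, 220.1, 253 and 199 CPM. Grik lay below both other groups with no overlap, and the CamK and SST values overlapped through CamK WT replicate 3. Necab1 was 1.77-fold higher in CamK than in Grik (log2 0.83, SE 0.15, edgeR adjusted p 7.34e-05) and 2.23-fold lower in Grik than in SST (log2 -1.16, SE 0.15, adjusted p 4.02e-07). For CamK against SST the log2 difference was -0.33 (SE 0.14, edgeR adjusted p 0.0531), which passed without CamK WT replicate 3 (adjusted p 0.0108), SST WT replicate 1 (0.0463) or SST WT replicate 5 (0.0490) and with DESeq2 (0.0379), the 1 CPM filter (0.0404) or the dentate covariate (0.0439). Over all libraries left out in turn it ranged from -0.46 to -0.24 with adjusted p up to 0.187, the weakest without CamK WT replicate 4.

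Necab2 (ENSMUSG00000031837, chromosome 8 from 119446719 to 119472640, plus strand), known as a binding partner of adenosine and metabotropic glutamate receptors, had 74.3, 93.8, 83.5 and 119.7 CPM in CamK WT. Grik WT had 108, 114, 131 and 134 CPM and SST WT had 38.7, 37.1, 36.8 and 60.6 CPM. The SST values lay below both excitatory groups, which overlapped through CamK WT replicate 5. The log2 difference was 1.10 for CamK against SST (SE 0.15, edgeR adjusted p 1.34e-06) and 1.49 for Grik against SST (SE 0.15, adjusted p 1.45e-08). For CamK against Grik it was -0.39 (SE 0.15, edgeR adjusted p 0.0400), a call lost without CamK WT replicate 2, 3 or 4 (adjusted p 0.120, 0.0584 and 0.0983) or Grik WT replicate 5 or 6 (0.0881 and 0.0945).

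Necab3 (ENSMUSG00000027489, chromosome 2 from 154544399 to 154558890, minus strand), known as a partner of the amyloid precursor binding protein Apba2, had the smallest range of WT group means of the 9 genes (0.83 on the log2 scale). Its levels were 39.5, 36.3, 30.4 and 41.4 CPM in CamK WT and 27.7, 25.9, 27.1 and 32.6 CPM in Grik WT. In SST WT they were 22.8, 20.3, 22.0 and 17.8 CPM. SST lay below both other groups, and CamK replicate 4 overlapped Grik replicate 6. The log2 difference of Necab3 was 0.38 for CamK against Grik (SE 0.12, edgeR adjusted p 0.00972), 0.83 for CamK against SST (SE 0.12, adjusted p 1.12e-06) and 0.45 for Grik against SST (SE 0.12, adjusted p 0.00187). Per kb, Necab2 made up 66.0 ± 3.70% of the family in Grik WT (SD, n = 4) and Necab1 59.1 ± 5.85% in SST WT, while in CamK WT Necab2 held 48.1 ± 5.75% and Necab1 36.1 ± 5.36%.

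Counted together, 8 of the 9 genes passed the test between CamK and Grik WT, 3 higher in CamK (Calb1, Necab1 and Necab3) and 5 lower. Over all 18823 genes 42% passed, 20.9% higher and 21.1% lower. Between CamK and SST WT 7 passed, 5 higher in CamK and 2 lower (Calb2 and Pvalb), against 60.1% of all genes, 29.5% higher and 30.5% lower. Between Grik and SST WT all 9 passed, 6 higher in Grik and 3 lower (Calb1, Pvalb and Necab1), against 57.3%, 28.1% and 29.2% of all genes. The groups did not overlap for 6, 7 and 9 members in these comparisons, where 38.3%, 53.9% and 52.3% of all genes did not overlap. The median absolute log2 difference of the members was 0.66, 1.10 and 1.89, and over all genes it was 0.34, 0.54 and 0.51. The 3 comparisons share their WT libraries.

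The wider EF-hand family was read from a list of 20 other genes, of which 19 were tested and Rcvrn was not. Of these, 7 were higher and 6 lower in CamK than in Grik, 13 higher and 2 lower in CamK than in SST, and 13 higher and 2 lower in Grik than in SST. Over all genes 42%, 60.1% and 57.3% passed in these comparisons. The median log2 difference of the list was 0.03, 0.77 and 1.05, and that of the 9 members was -0.39, 0.55 and 1.21. Over all genes it was 0.01, -0.02 and -0.03. Kcnip3, a potassium channel interacting sensor, was 11.4-fold higher in CamK than in SST (162 ± 13.2 against 14.2 ± 2.35 CPM, SD, n = 4, edgeR adjusted p 4.80e-14). Kcnip1, of the same family, was lower in both excitatory populations than in SST, with 80.8 ± 6.07 CPM in SST WT, 7.76 ± 1.87 in CamK WT and 4.01 ± 1.33 in Grik WT.

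By log2 difference, the other list genes highest in CamK against Grik were Efhd2 (1.62), Kcnip3 (0.98) and Kcnip1 (0.96), and the lowest were the low-level S100a1 (-2.86) and Scgn (-0.80) and then Cabp7 (-0.76). Against SST, Kcnip4 (2.90) and Cabp7 (2.77) followed Kcnip3 (3.51) in CamK, and Kcnip1 (-3.38) and S100a1 (-1.46) were lower there. In Grik against SST, Cabp7, a calmodulin-like protein, was highest (3.53), followed by Kcnip3 (2.54) and Kcnip2 (2.43), and Kcnip1 (-4.33) and Efhd2 (-1.72) were lower. Efhd2, or swiprosin, was lowest in Grik, where Calb1 and Necab1 were lowest too.

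**Figure D3:**
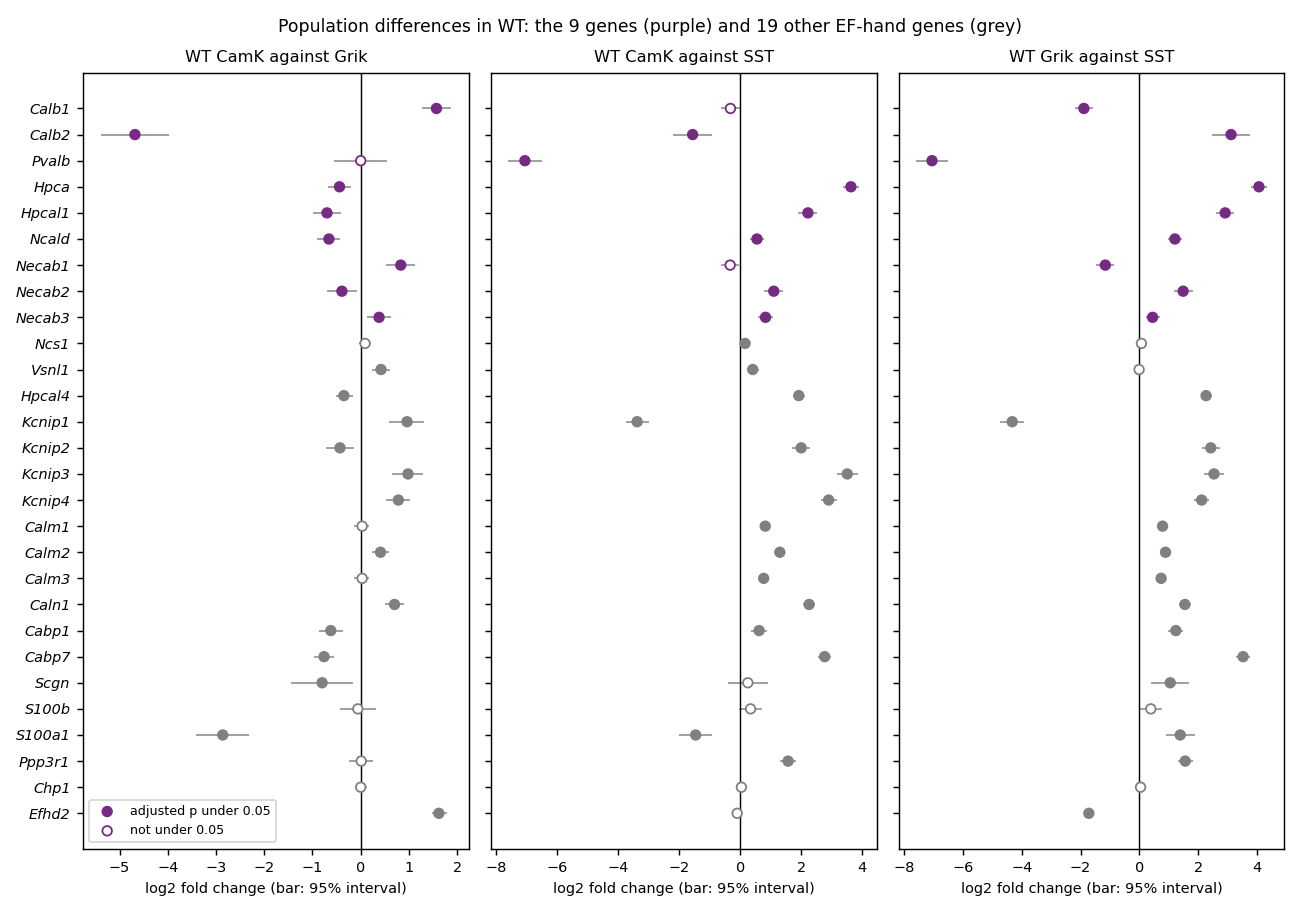
Log2 fold change between WT populations with 95% interval for the 9 genes (purple) and 19 other EF-hand genes (grey), in the panels CamK against Grik, CamK against SST and Grik against SST; filled points passed an adjusted p of 0.05. Pvalb (-7.06) is the lowest point in both comparisons with SST, and Hpca (3.63 and 4.07) is the highest.

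Other genes with the most similar profile were found by the root mean square difference of log2 CPM over the 23 libraries, each gene centred on its own mean. For Hpca they were Ptk2b (0.154) and Crym (0.157), where the median over 12964 genes was 1.81. Crym averaged 456 CPM in WT libraries of CamK, 595 of Grik and 34.7 of SST. Klhl2 (0.199) was among the closest to Hpcal1, and Ncald was closest to Rragd (0.122) and Stard7 (0.129). For Pvalb the closest were Lgals1 (0.346) and Lypd6 (0.422), for Calb2 Cavin2 (0.438) and Fgl2 (0.569), and for Calb1 Tmem164 (0.221) and Sh3bgrl2 (0.231). Necab1 was closest to Cacnb4 (0.157) and Tiam1 (0.181) and Necab2 to Itm2c (0.143) and Rab3ip (0.198). Necab3 varied too little over the WT populations for this measure to be used. All profiles share the same libraries and the same 3 populations.

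The CamK libraries were the least even for these genes. The median coefficient of variation of the 9 genes was 20.3% in CamK WT and 16.3% in the CamK libraries labelled cKO, where genes of at least 10 CPM had medians of 8.17% and 7.59%. It was 10.5% in Grik WT and 12.0% in SST WT, against 8.16% and 8.06%.

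In CamK the dentate granule cell markers Prox1, Dsp, C1ql2 and Stxbp6 differed between libraries along with Calb1. Their summed level was 405, 326, 163 and 235 CPM in WT replicates 2, 3, 4 and 5, and 299, 153 and 387 CPM in the libraries labelled cKO, replicates 4, 5 and 6. Calb1 was lowest in the libraries with the lowest marker sums (162 CPM in WT replicate 4 and 169 CPM in cKO replicate 5) and highest in those with the highest sums (252 CPM in WT replicate 2 and 226 CPM in cKO replicate 6). CA1 pyramidal markers had the opposite order at the ends, with summed levels of 1531 CPM in WT replicate 4 and 1668 CPM in cKO replicate 5 against 1118 CPM in WT replicate 2 and 1006 CPM in cKO replicate 6. CA3 pyramidal markers ranged from 106 to 234 CPM over the 7 libraries, lowest in cKO replicate 5, and GABAergic markers from 41.2 to 135 CPM. Calb2 (7.48 and 4.97 CPM), Hpcal1 (52.6 and 55.0 CPM), Ncald (836 and 676 CPM) and Necab3 (30.4 and 32.5 CPM) also had their lowest values of the 7 libraries in WT replicate 4 and cKO replicate 5. Pvalb, Necab1 and Necab2 did not. Within each genotype, though, Pvalb (0.745 and 1.32 CPM) and Necab1 (144 and 175 CPM) were also lowest in those libraries. Hpca was highest in WT replicate 4 (4143 CPM) and in cKO replicate 5 within its genotype (3327 CPM). In Grik WT replicates 3, 4, 5 and 6 the dentate list summed to 233, 223, 196 and 218 CPM. Calb1 had the same order there, at 75.9, 71.6, 57.0 and 68.9 CPM. In the Grik libraries labelled cKO, replicates 1, 2, 3 and 4, the list summed to 211, 195, 198 and 217 CPM. Calb1 stood at 58.5, 57.1, 53.4 and 60.4 CPM in them. The part of granule cells in these levels, or of any other of these cell types, was not tested.

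**Figure D4:**
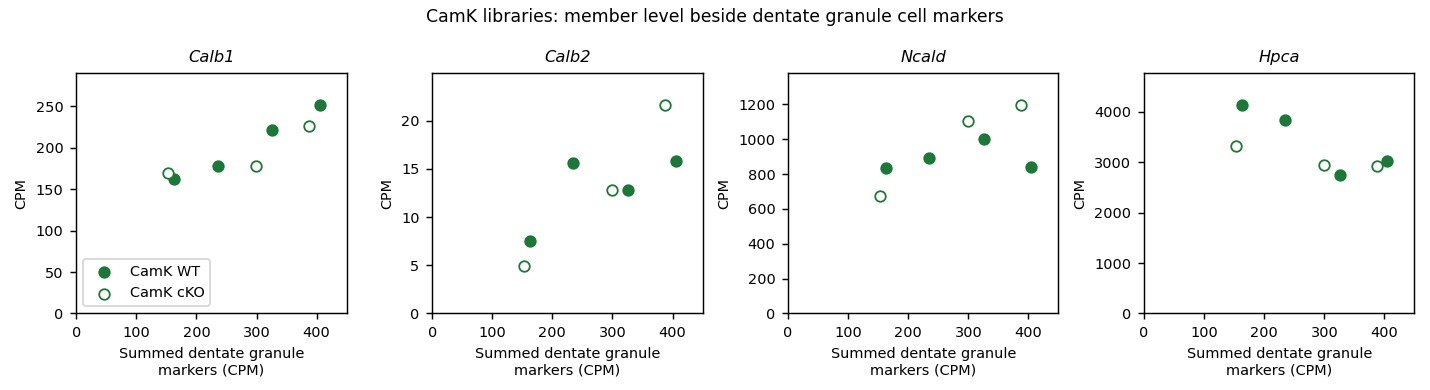
Levels of Calb1, Calb2, Ncald and Hpca (CPM) in the 7 CamK libraries against the summed level of 4 dentate granule cell markers (CPM), with WT and cKO libraries marked apart. Calb1 lies at 162 and 169 CPM in the libraries with the lowest sums and at 252 and 226 CPM in those with the highest.

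None of the 9 genes passed the test between the libraries labelled cKO and WT in any population. In each of CamK, Grik and SST the count was 0 of 9, where 0.0106% of all genes passed in CamK, 0.0106% in Grik and 0.0106% in SST by edgeR's quasi-likelihood test. DESeq2 and limma-voom called 0 of 9 as well. At an unadjusted p under 0.05 there was 1 member in CamK (Pvalb), 1 in Grik (Necab3) and 0 in SST, where 7.05%, 4.88% and 5.85% of all genes had such a p.

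Pvalb in CamK was at trace level in both genotypes. It stood at 1.92, 1.32 and 1.47 CPM in the libraries labelled cKO, from 117 to 172 reads, and at 1.20, 0.930, 0.745 and 1.31 CPM in WT. All 3 cKO values were above all WT values, with the nearest pair at 1.32 and 1.31 CPM. The log2 difference was 0.58 (SE 0.27, edgeR p 0.0422, adjusted p 0.688), and 3.35% of all genes had cKO values above all WT values in CamK. In SST, where Pvalb was abundant, it stood at 126, 149.5, 138 and 195 CPM in the libraries labelled cKO, overlapping WT, with a log2 difference of 0.12 and a 95% interval of -0.28 to 0.52 (-0.02 without cKO replicate 7 and 0.21 without WT replicate 2).

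Necab3 in Grik stood at 33.3, 33.4, 35.6 and 33.9 CPM in the libraries labelled cKO and at 27.7, 25.9, 27.1 and 32.6 CPM in WT. All 4 cKO values lay above all WT values, with WT replicate 6 close beneath them. The log2 difference of Necab3 was 0.27 (SE 0.12, edgeR p 0.0307, adjusted p 0.992), and 2.43% of all genes had such an upward separation in Grik. The lowest adjusted p for it in any alternative was 0.126, with limma-voom. In CamK, Necab3 stood at 48.5, 32.5 and 50.9 CPM in the libraries labelled cKO, overlapping WT (log2 0.25, SE 0.12, edgeR adjusted p 0.717). That value was 0.43 without cKO replicate 5 (adjusted p 0.314) and 0.13 without cKO replicate 6 (0.850), the cKO libraries with the lowest and the highest dentate marker sum (153 and 387 CPM). The part of granule cells in it was not tested. In SST the log2 difference of Necab3 was -0.04 (SE 0.12, adjusted p 0.973).

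The 95% intervals of the log2 differences give the sizes of change that these libraries allow. Hpca differed by -0.16 in CamK (interval -0.43 to 0.10), 0.02 in Grik (-0.22 to 0.26) and 0.22 in SST (-0.03 to 0.46). Calb1 differed by -0.09 in CamK (-0.41 to 0.24), -0.25 in Grik (-0.55 to 0.05) and 0.03 in SST (-0.27 to 0.33). Calb2 had the widest interval of the 9 genes in each population, at 0.03 in CamK (-0.65 to 0.71), -0.13 in Grik (-0.73 to 0.48) and 0.28 in SST (-0.33 to 0.90).

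In CamK, Calb2 stood at 12.9, 4.97 and 21.7 CPM in the libraries labelled cKO, on both sides of the WT values. Hpcal1, Ncald, Necab1 and Necab2 differed by -0.26 to 0.23 on the log2 scale over the 3 populations, with the lowest value for Necab1 in Grik (95% interval -0.57 to 0.04) and the highest for Necab2 in Grik (-0.08 to 0.54). Ncald in SST had the value nearest to 0, at 609 ± 38.0 CPM in the libraries labelled cKO and 609.6 ± 69.7 CPM in WT (SD, n = 4). The leading gene of each population kept its place in the libraries labelled cKO: Calb1 made up 82.2 ± 6.46% of the buffers per kb in CamK (SD, n = 3), Calb2 93.0 ± 0.753% in Grik (n = 4) and Pvalb 64.3 ± 2.85% in SST (n = 4).

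**Figure D5:**
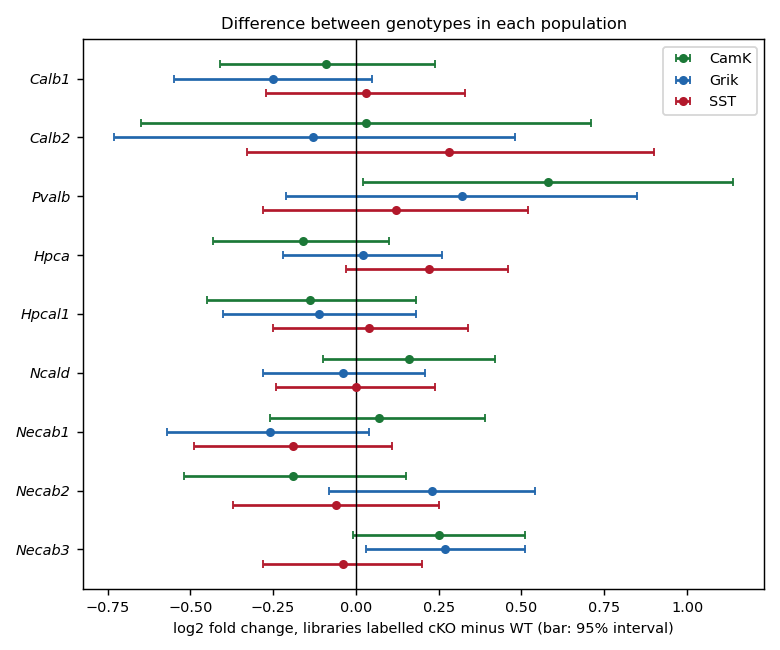
Log2 fold change of the libraries labelled cKO against WT, with 95% interval, for the 9 genes in CamK, Grik and SST. The points lie between -0.26 and 0.58, and the intervals span 0 except for Pvalb in CamK and Necab3 in Grik.

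Whether the genotype difference itself varied between populations was tested for each gene. The count of members that passed was 0 of 9 for CamK against Grik, for CamK against SST and for Grik against SST, where 0.00531%, 0% and 0.0106% of all genes passed in edgeR. DESeq2 and limma-voom also called 0 members in each. At an unadjusted p under 0.05 there was 1 member, Hpca for CamK against SST, and 0 in the other comparisons, where 6.5% of all genes had such a p for CamK against Grik, 7.85% for CamK against SST and 3.86% for Grik against SST. Hpca stood at 2946, 3327 and 2927 CPM in the CamK libraries labelled cKO and at 281, 259, 360.0 and 389.9 CPM in the SST ones. Both sets overlapped the WT values of their population. Excitatory markers of the SST libraries labelled cKO, replicates 3, 4, 5 and 7, summed to 720.2, 815, 934 and 1027 CPM, highest in replicates 5 and 7 as Hpca was, against 749 to 882 CPM in SST WT. Their part in the Hpca values was not tested. The difference of the log2 effects was -0.38 (SE 0.17, edgeR p 0.0385, adjusted p 0.621). Of the 19 other EF-hand genes tested, 0 passed between genotypes in any population, and 2, 1 and 5 had an unadjusted p under 0.05 in CamK, Grik and SST, beside 7.05%, 4.88% and 5.85% of all genes. The 5 in SST (Kcnip2, Kcnip3, Cabp7, S100b and S100a1) had log2 differences of 0.21 to 0.83. In the SST libraries labelled cKO the oligodendrocyte list summed to 209.6 to 868 CPM and the astrocyte list to 41.9 to 119 CPM, both highest in replicate 7, against 241 to 546 and 46.3 to 91.2 CPM in SST WT. The GABAergic list summed to 4972, 5790, 4333 and 3735 CPM in cKO replicates 3, 4, 5 and 7, against 4719.7 to 5327 CPM in SST WT. Microglia markers summed to 4.96 to 16.2 CPM in these cKO libraries, highest in replicate 7, against 5.08 to 6.12 CPM in SST WT. The excitatory list, whose sums are given beside Hpca above, was also highest in replicate 7, and of its genes Tbr1 differed by 0.60 (log2, edgeR adjusted p 0.833), Slc17a7 by 0.50 (0.833), Neurod6 by 0.13 (0.933) and Camk2a by -0.01 (0.987) between genotypes in SST. The part of these cells in the 5 values was not tested.

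Counts for a few members could include reads of overlapping genes, since the strand setting of the counting is not given in the sources used here. In GENCODE M21 the exons of Hpca share 57 bases with Tmem54 on the other strand, those of Necab1 410 bases with the antisense gene Gm11837 and those of Necab3 71 bases with 1700003F12Rik on the other strand. The exons of Ncald share 347 bases with Gm28221 on the other strand and 286 with Gm49397 on its own strand. Calb1, Calb2, Pvalb, Hpcal1 and Necab2 overlap no other gene of that annotation.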

How the data were processed

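Polyadenylated RNA of 23 libraries was analysed from the deposited table of whole-number read counts per Ensembl gene, made by the authors. Per the submitters' processing notes the tools were Trimmomatic and STAR and the build GRCm38. Versions, annotation release, strand setting and cell isolation are not given in the sources used here. Rows that name no gene (12.4 to 18.4% of reads) entered neither library sizes nor tests. Of 45706 gene identifiers, 45143 matched GENCODE M21, which gave symbols, positions and merged exon lengths.

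The filter was filterByExpr with the 6 groups; counts were scaled by TMM factors and fitted together in edgeR 4.0.16 (R 4.3.3) by the robust quasi-likelihood method with 17 residual degrees of freedom. Benjamini-Hochberg adjustment ran over all 18823 genes, with a threshold of 0.05. CPM values carry the TMM scaling, and log2 CPM used a prior count of 0.5. Levels of different members were compared only as CPM per kb of merged exons, which counts all annotated isoforms. At 87612006 to 112993538 reads per library, only Pvalb in CamK and Grik rested on few reads (61 to 172 per library). The common biological coefficient of variation was 16.3%. No replicate pair agreed within sampling noise (chi-square per degree of freedom 8.27 to 198). The test was checked on simulated counts.

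The members were given by name, and the members, the lists and the tests were chosen with earlier results of these data known. Named besides the members were, from the EF-hand list, up to 3 called genes per direction with the largest difference and a mean of at least 1 CPM, and the 2 genes most like each member, of which 1 is not reported here. Alternatives were RLE scaling, other filters, DESeq2 1.42.0, limma-voom (limma 3.58.1) with sample weights, the compared populations alone, the replicate number as a block, leaving out each library, and, added after seeing the data, the dentate marker level as a covariate.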

Additional observations from a re-analysis of the deposited data

Results flagged for a closer look

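Necab2 in SST WT replicate 5 stood at 60.6 CPM, while the other 3 libraries of its group lay between 36.8 and 38.7 CPM. The gap to the nearest library was 0.921 of the group's range. Of 45 sets of 4 libraries examined in this way 1 was set apart, where chance, at about 1 in 20, would give 2.25. Without this library the genotype difference of Necab2 in SST was 0.15 (log2) in place of -0.06, and neither value passed the test. In SST WT replicate 5 the markers of CCK and neurogliaform interneurons (Cnr1, Lamp5 and Ndnf) summed to 161.5 CPM. They summed to 89.2, 111 and 110 CPM in replicates 1, 2 and 3. Most of the list was Cnr1, which averaged 95.1 CPM in SST WT, with Lamp5 at 9.18 CPM and Ndnf at 13.5 CPM. The list was not particular to SST, as it summed to 158 to 178 CPM in Grik WT. Calb1, Calb2, Hpcal1 and Ncald also had their highest SST WT value in replicate 5. The part of these interneurons in the Necab2 value was not tested.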

How the results depend on the processing

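Between WT populations, the count of members lower in CamK than in SST was 2 and became 4 with a filter of at least 1 CPM in 3 libraries, with DESeq2 and with the dentate marker covariate, since Calb1 (adjusted p 0.0459, 0.0449 and 0.0165) and Necab1 (0.0404, 0.0379 and 0.0439) then passed. It ranged from 2 to 4 when a library was left out, with 4 without SST WT replicate 1. Necab2 between CamK and Grik was lost with no filter on low counts (adjusted p 0.0734). The other counts of members kept their value or moved by 1.

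Replicate numbers were not shown to pair the libraries: deviations of same-numbered libraries correlated at -0.08 to 0.10, and some correlated more with another number (up to 0.11). Others correlated most with their own number, as replicate 5 of SST did between genotypes (0.10). Values this low in so few libraries cannot exclude pairing, and the labels do not state it. With the number as a replicate block, Necab1 passed between CamK and SST (log2 -0.38, adjusted p 0.00395), and genotype values near 0 changed sign without passing: Calb2 in CamK -0.27 and in Grik 0.06, Ncald in Grik 0.08, and in SST Calb1 -0.01, Pvalb -0.08 and Hpcal1 -0.06. The sign also changed for Calb2 in CamK with the dentate covariate (-0.12) and for Necab2 in SST with limma-voom (0.04).

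Leaving out a library gave sign changes, none past the threshold, for the genotype values of Calb1 (-0.23 to 0.04), Calb2 (-0.54 to 0.42) and Hpcal1 (-0.26 to 0.03) in CamK, Hpca (-0.01 to 0.06) in Grik, and Calb1 (-0.06 to 0.21), Pvalb (-0.02 to 0.21), Hpcal1 (-0.06 to 0.11), Necab2 (-0.15 to 0.15) and Necab3 (-0.10 to 0.01) in SST. Ncald in SST, at 0.00, ranged from -0.05 to 0.08. The causes were not tested.

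Over all genes, the genotype calls of 2, 2 and 2 in CamK, Grik and SST became 16, 14 and 11 with DESeq2, 6, 37 and 0 with limma-voom and 1, 5 and 0 in populations fitted alone. The block gave 4 in CamK, no filter gave 1 in SST and the dentate covariate gave 4 in SST. Leaving out a library gave 1 to 4, 1 to 9 and 0 to 2. Differences of genotype effects, 1, 0 and 2 calls for CamK against Grik, CamK against SST and Grik against SST, became 11, 14 and 4 with DESeq2. With a library left out they ranged from 0 to 2, 0 to 1 and 2 to 3. Limma-voom gave 1 for CamK against SST, the block gave 0 for CamK against Grik, and the dentate covariate gave 4 for Grik against SST. The dentate covariate is centred within CamK, so it could move differences between populations little by its construction. Pvalb in CamK and Grik rested on the fewest reads of the members (61 to 172 per library).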

Other observations

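Summed over the 9 genes, the level per exon length was highest in Grik. It was 2122 ± 104 CPM per kb (SD, n = 4) in Grik WT, 1465 ± 204 in CamK WT and 454 ± 48.8 in SST WT. Hpca alone made up 79.9 ± 4.63% of this sum in CamK WT and 75.2 ± 1.27% in Grik WT, but 21 ± 1.33% in SST WT, where Pvalb held 29.5 ± 3.25%, Ncald 15.7 ± 0.872% and Calb1 11.4 ± 1.78%.

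Among the other EF-hand genes in SST, S100a1 had the lowest unadjusted p between genotypes. It averaged 2.99 ± 1.32 CPM in the libraries labelled cKO and 1.68 ± 0.146 CPM in WT (SD, n = 4), a log2 difference of 0.83 (SE 0.24, edgeR p 0.00229, adjusted p 0.833). It was chosen after its values were seen.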
